A study of Homo sapiens with 6 samples.

Results

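The genes described here are TXNIP, its relatives ARRDC1, ARRDC2, ARRDC3 and ARRDC4, and the glucose-sensing transcription factor genes MLXIP, MLXIPL and MLX. They were taken by name from a deposited table of raw counts, as 8 of its 58735 genes, and 7 of the 8 had enough counts to be tested. The RNA came from ACHN, a long-established line of human kidney carcinoma cells, classed by the submitters as clear cell carcinoma of wild-type genotype. It was poly(A)-selected and read from both ends on an Illumina instrument. The 3 control libraries are labelled as vehicle controls, although the series design says that they received no drug. The 3 curcumol libraries came from cells given curcumol, a sesquiterpenoid of Curcuma rhizomes, at a dose and for a time not given in the sources used here. Both groups are the same cell line, so the results speak for 1 line, and the labels call the libraries independent biological replicates. The stated aim was to learn how the compound acts on glycolysis in these cells.

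MLXIP encodes MondoA and MLXIPL encodes ChREBP, paralogous transcription factors that enter the nucleus when glucose-6-phosphate accumulates. Each binds DNA as a pair with MLX, at carbohydrate response elements made of a pair of E boxes a few bases apart. TXNIP is the best known target, and ARRDC4, its closest relative, is another. TXNIP and the ARRDC proteins are alpha-arrestins, adaptors that bring NEDD4-family ubiquitin ligases to membrane proteins. TXNIP and ARRDC4 are known to reduce glucose uptake, and TXNIP also binds and inhibits thioredoxin.

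All 7 tested genes passed the test and all 7 were separated between the groups, meaning that every curcumol library lay above, or every one below, all control libraries. Over all 15160 genes tested, 79.7% passed (edgeR quasi-likelihood test, Benjamini-Hochberg adjusted p under 0.05) and 81% were separated, so such counts are near the background. ARRDC4, ARRDC2 and ARRDC3 rose, and TXNIP, ARRDC1, MLXIP and MLX fell, a split of 3 and 4 where 39.4% of all tested genes were higher and 40.3% lower. Changes of at least 2-fold were seen in 4 of the 7, against 44.4% of all tested genes. They were seen in 2 of the 7 when an offset for the GC content of transcripts was added to the fit. The matching share of all genes with the offset is not given here, so that count has no background beside it. Levels are given as CPM, counts scaled to a common library total, with TMM, a correction for the makeup of each library. In bulk RNA a lower level per cell and fewer cells with the RNA cannot be told apart.

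**Figure D1:**
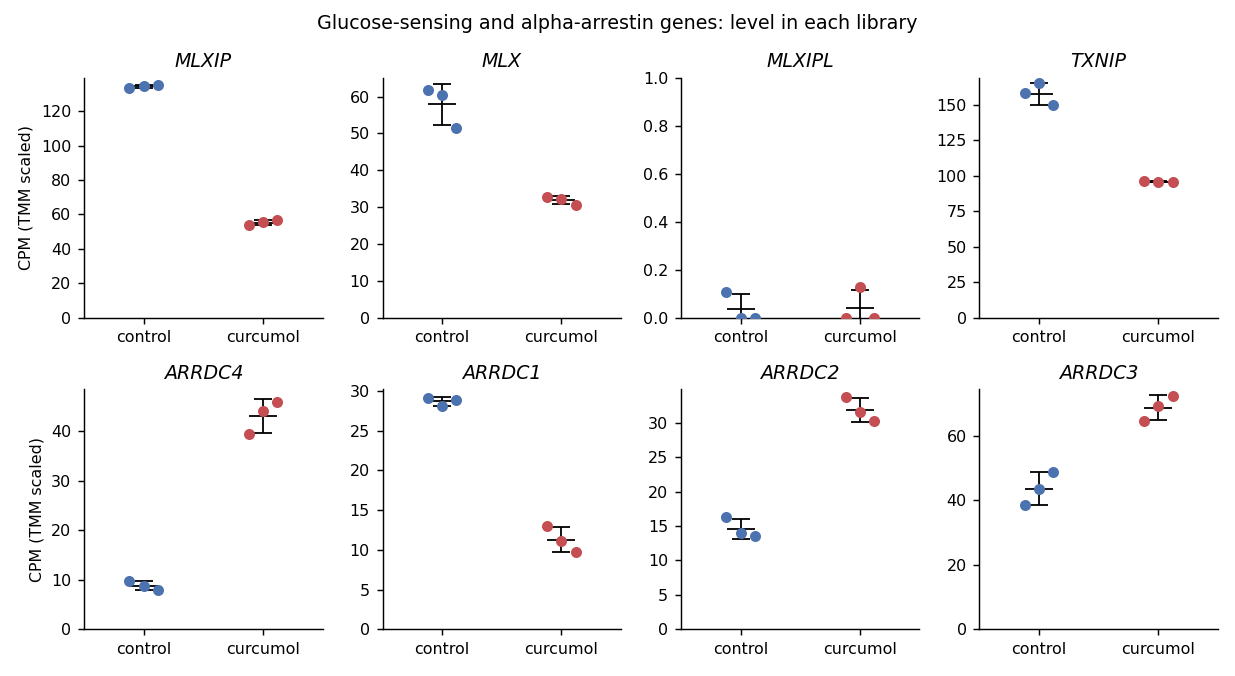
Level of each gene in CPM (vertical axes, TMM scaled) in the 3 control and 3 curcumol libraries. Points are libraries and bars show mean ± SD. Both groups of MLXIPL sit at or next to 0, and the groups of the other genes do not overlap.

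Of the 3 sensor genes, MLXIP and MLX were lower in curcumol and MLXIPL was not tested. MLXIP (ENSG00000175727, chromosome 12, 122078722 to 122147347, plus strand, GRCh38) stood at 134, 135 and 135 CPM in control and at 53.6, 55.4 and 56.5 CPM in curcumol. The spread within each group was small beside the gap between them. MLXIP fell by 1.29 ± 0.06 on the log2 scale (SE, edgeR adjusted p = 6.88e-14), so that control was 2.44-fold higher. With the GC content offset it stood at -0.51. MLX (ENSG00000108788, chromosome 17, 42567068 to 42573239, plus strand), the shared partner, had 61.9, 60.3 and 51.5 CPM in control and 32.6, 32.3 and 30.7 CPM in curcumol. Its lowest control library, the third, was still above every curcumol library. MLX fell by 0.86 ± 0.09 on the log2 scale (edgeR adjusted p = 6.86e-09), and stood at -0.44 with the offset.

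MLX shares 770 exonic bases with PSMC3IP, a recombination factor gene on the other strand, and whether reads were counted by strand is unknown. Counts of PSMC3IP were 391, 341 and 406 in control against 414, 440 and 409 in curcumol, a log2 fold change of 0.42 (0.16 with library totals, edgeR adjusted p = 0.152). The overlapping gene thus did not share the direction of MLX. MLXIPL (ENSG00000009950, chromosome 7, 73593194 to 73624543, minus strand) was next to absent. Its counts were 2, 0 and 0 in control against 0, 2 and 0 in curcumol. A count of 0 at these depths allows a level of up to 0.168 to 0.174 CPM (3 counts of the library total, counting error only), so its groups cannot be told apart. Of the sensor pair, MLXIP was the one with measurable mRNA in these cells.

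TXNIP and ARRDC4, the targets named above, went in opposite directions. TXNIP (ENSG00000265972, chromosome 1, 145992435 to 145996600, minus strand) stood at 158, 165 and 150 CPM in control and at 96.0, 95.7 and 95.4 CPM in curcumol. The curcumol libraries were nearly equal, and all lay below the control libraries. TXNIP fell by 0.72 ± 0.06 on the log2 scale (SE, edgeR adjusted p = 6.22e-10), which is 1.65-fold. That is a modest change here, with an absolute size above 42.2% of all tested genes.

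ARRDC4 (ENSG00000140450, chromosome 15, 97960698 to 97973838, plus strand) had 9.69, 8.77 and 7.95 CPM in control and 39.4, 44.0 and 46.0 CPM in curcumol. Every curcumol library was more than 4 times the highest control library. ARRDC4 rose by 2.29 ± 0.11 on the log2 scale (SE, edgeR adjusted p = 1.95e-14), or 4.90-fold, an absolute change above that of 88.0% of tested genes. Neither TXNIP nor ARRDC4 shares annotated exons with another gene.

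The DNA just before the 2 starts is shown because these genes are described as targets of the same factors and moved apart. RefSeq (GRCh38.p14) gives the 250 bases before each start, read 5′ to 3′ on the gene's strand, at chr1:145996580-145996829 (minus) for the outer of 2 listed TXNIP starts and at chr15:97960453-97960702 (plus) for ARRDC4. Capitals mark the CCAAT box (CCAAT or its complement), the E box CACGTG, the AP-1 motif TGANTCA and a pair of E boxes, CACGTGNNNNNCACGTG, with at least 10 of its 12 fixed letters.
TXNIP: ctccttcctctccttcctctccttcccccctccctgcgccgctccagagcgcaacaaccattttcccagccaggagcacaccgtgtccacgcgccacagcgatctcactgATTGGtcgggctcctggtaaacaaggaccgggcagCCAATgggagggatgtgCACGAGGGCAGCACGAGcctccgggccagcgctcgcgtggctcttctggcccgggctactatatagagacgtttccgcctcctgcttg
ARRDC4: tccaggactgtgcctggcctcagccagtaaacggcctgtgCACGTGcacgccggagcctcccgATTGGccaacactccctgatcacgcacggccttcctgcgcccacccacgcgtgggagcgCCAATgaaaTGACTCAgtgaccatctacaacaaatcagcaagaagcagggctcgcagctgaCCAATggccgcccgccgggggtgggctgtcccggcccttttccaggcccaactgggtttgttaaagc

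The TXNIP window held an E box pair at 10 of 12 letters, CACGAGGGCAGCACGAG, from 88 to 72 bases before the start. Of all 35116 listed windows of this length, 0.849% held a pair at least that close, and the threshold was set with the TXNIP sequence in view. The best pair in the ARRDC4 window had 9 of 12 letters, a level that 7.76% of windows reach. ARRDC4 held 1 whole E box (6.34% of windows), 210 to 205 bases before the start, where TXNIP held 0. CCAAT boxes numbered 2 in TXNIP and 3 in ARRDC4, and 32% of windows held at least 1. ARRDC4 also held 1 AP-1 motif, TGACTCA, 119 to 113 bases before the start (6.57% of windows), and TXNIP held 0. The heat shock motif GAANNTTC (5.78% of windows) was in neither. These motifs were not particular to ARRDC4 among the genes described here. MLX, which fell, also held a whole E box, and ARRDC2, which rose, an AP-1 motif, TGATTCA. A best pair of 9 letters was also found for ARRDC2, ARRDC3, MLXIPL and MLX. All motifs were searched on both strands, and a match in these letters says nothing about binding.

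Of the other alpha-arrestins, ARRDC2 and ARRDC3 were higher and ARRDC1 was lower. ARRDC2 (ENSG00000105643, chromosome 19, 18001132 to 18014102, plus strand), an adaptor less studied than TXNIP, had 16.3, 13.9 and 13.6 CPM in control and 33.8, 31.5 and 30.2 CPM in curcumol. The curcumol libraries were each about 2-fold above control. ARRDC2 rose by 1.13 ± 0.10 on the log2 scale (SE, edgeR adjusted p = 1.54e-09).

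ARRDC3 (ENSG00000113369, chromosome 5, 91368724 to 91383359, minus strand), which is known for promoting the turnover of adrenergic receptors and integrin beta 4, had 38.5, 43.4 and 48.7 CPM in control and 64.4, 69.3 and 72.2 CPM in curcumol. Its control libraries were the most spread of the 5 alpha-arrestins relative to the gap between groups. ARRDC3 rose by 0.66 ± 0.09 on the log2 scale (SE, edgeR adjusted p = 4.47e-07). It shares 145 exonic bases with ARRDC3-AS1 on the other strand, which had at most 11 counts in any library.

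ARRDC1 (ENSG00000197070, chromosome 9, 137605654 to 137615360, plus strand), known for driving the release of small vesicles from the plasma membrane, had 29.1, 28.1 and 28.9 CPM in control and 12.9, 11.1 and 9.79 CPM in curcumol. It fell by 1.35 ± 0.11 on the log2 scale (SE, edgeR adjusted p = 2.95e-10), the largest fall among the 7 tested genes with TMM scaling. The fall of MLXIP was close to it, and with curcumol replicate 3 left out ARRDC1 stood at -1.25 and MLXIP at -1.30. The antisense gene ARRDC1-AS1, which shares 29 exonic bases with it, stood at -0.79 ± 0.14, and at 0.11 with the GC content offset (edgeR adjusted p = 0.487).

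Composition of the libraries bears on these sizes. GC-rich transcripts tended to be lower in curcumol (Spearman rho of log2 fold change with GC content -0.34 over 15154 genes, which are not independent replicates). With the genes put into 10 equal bins of GC content, the median was 0.62 in the lowest bin and -0.83 in the highest. TXNIP (43.9% GC in its longest transcript) and ARRDC4 (43.4%) lie in the same bin, whose median was 0.18, and an offset for GC content left them at -0.75 and 2.23. The offset also took up the mean shift of each library, which TMM already corrects, so it holds an upward shift in curcumol common to all genes. Its GC-dependent part comes on top, and TXNIP, ARRDC3 and ARRDC4 stood lower with the offset than with TMM alone. With the offset 7010 of 15154 genes were higher and 4904 lower, against 5967 and 6109 of 15160 with TMM alone. ARRDC3, with 37.6% GC, lies in the lowest bin, whose median of 0.62 is close to its own 0.66, and stood at 0.29 with the offset (edgeR adjusted p = 0.000573). ARRDC1, with 62.8% GC, lies in the highest bin and stood at -0.36 (edgeR adjusted p = 0.00218). ARRDC2 (60.2% GC) went against the median of its bin, -0.63, and stood at 2.01 with the offset. No direction or call of the 7 genes changed, but among the falls TXNIP was then the largest. The 0.29 of ARRDC3 includes the upward shift of the offset, and whether ARRDC3 would be higher or would pass without that shift was not tested. With library totals alone the median over all genes moved from -0.02 to -0.28. Each of the 7 values moved down by 0.26 or 0.27, with no change of direction or call. That drop, from leaving out TMM, is close in size to the 0.29 of ARRDC3 with the offset.

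**Figure D2:**
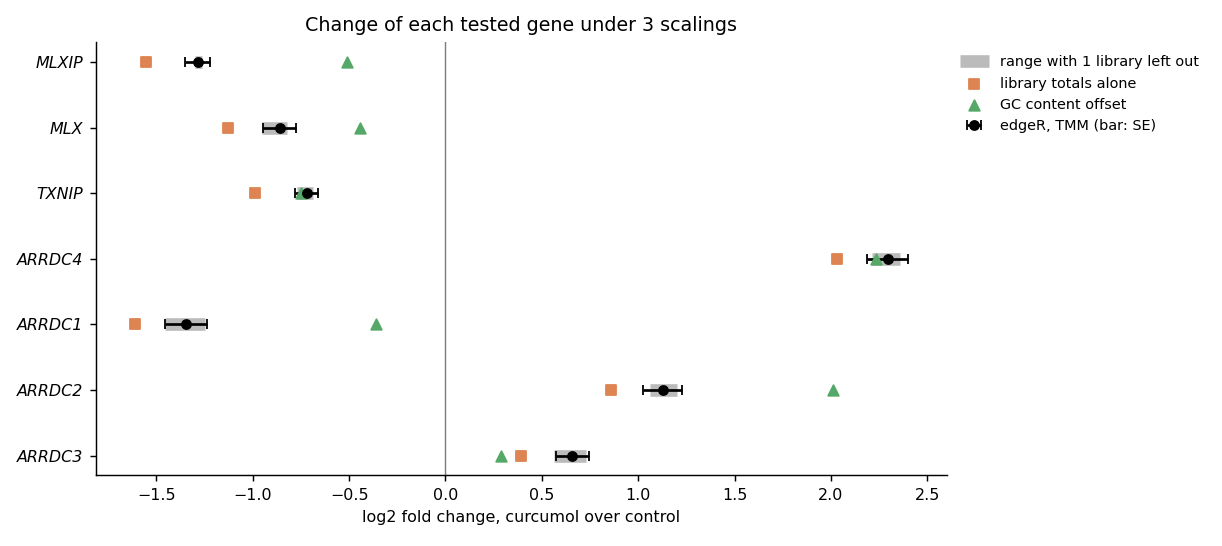
Log2 fold change of curcumol over control (horizontal axis) for the 7 tested genes. Black points are the edgeR values with TMM scaling and SE, squares library totals alone, triangles the GC content offset, and grey bars the range when 1 library was left out. Each gene stays on its side of 0, ARRDC1, MLXIP and MLX move towards 0 with the GC offset, and ARRDC2 moves away from it. The triangles include an upward shift common to all genes, so the side of 0 on which ARRDC3 would lie without it is uncertain.

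Ratios of 2 genes within a library do not depend on the scaling of libraries, but they do depend on the GC content offset, which differs between genes. There were 16.3, 18.9 and 18.8 TXNIP counts per ARRDC4 count in control and 2.44, 2.17 and 2.07 in curcumol. The ratio was thus 8.08-fold lower in curcumol, a log2 change of -3.02 (-2.98 with the offset), and the groups did not overlap. With 3 libraries against 3 the smallest possible p of the exact two-sided permutation test is 0.1, which this ratio reached (adjusted p = 0.125 over 5 pairs). The counts of TXNIP per MLXIP count were 1.18, 1.23 and 1.11 in control and 1.79, 1.73 and 1.69 in curcumol, a log2 change of 0.57 (exact permutation p = 0.1, adjusted p = 0.125). With the offset the direction turned, to -0.24, so which of TXNIP and MLXIP fell more depends on it. MLXIP per MLX went from 2.16, 2.24 and 2.63 to 1.64, 1.72 and 1.84, a log2 change of -0.43 (exact permutation p = 0.1, adjusted p = 0.125) that was -0.07 with the offset.

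ARRDC4 per ARRDC3 rose in every curcumol library, from 0.252, 0.202 and 0.163 to 0.611, 0.635 and 0.637, a log2 change of 1.63, or 1.94 with the offset (exact permutation p = 0.1, adjusted p = 0.125). ARRDC3 per ARRDC2, at 2.36, 3.12 and 3.59 in control and 1.91, 2.20 and 2.39 in curcumol, overlapped between the groups (exact permutation p = 0.2, adjusted p = 0.2), with a log2 change of -0.47, or -1.72 with the offset. None of the 5 pairs can pass a threshold of 0.05 in this design.

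With TMM scaling, the sum of the 5 alpha-arrestin genes overlapped between the groups. It was 252, 260 and 249 CPM in control and 247, 252 and 254 CPM in curcumol (exact two-sided permutation p = 0.6). With library totals alone it was 276, 282 and 274 CPM in control and 222, 230 and 233 CPM in curcumol, 17.7% lower and without overlap (exact permutation p = 0.1, the smallest possible). The makeup of the sum, which no scaling of libraries alters, did differ. TXNIP made up 62.2% ± 1.85 of it in control and 38.2% ± 0.680 in curcumol, and ARRDC4 made up 3.47% ± 0.338 and 17.2% ± 1.11 (SD, n = 3). These are shares of counts, which longer transcripts also raise.

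**Figure D3:**
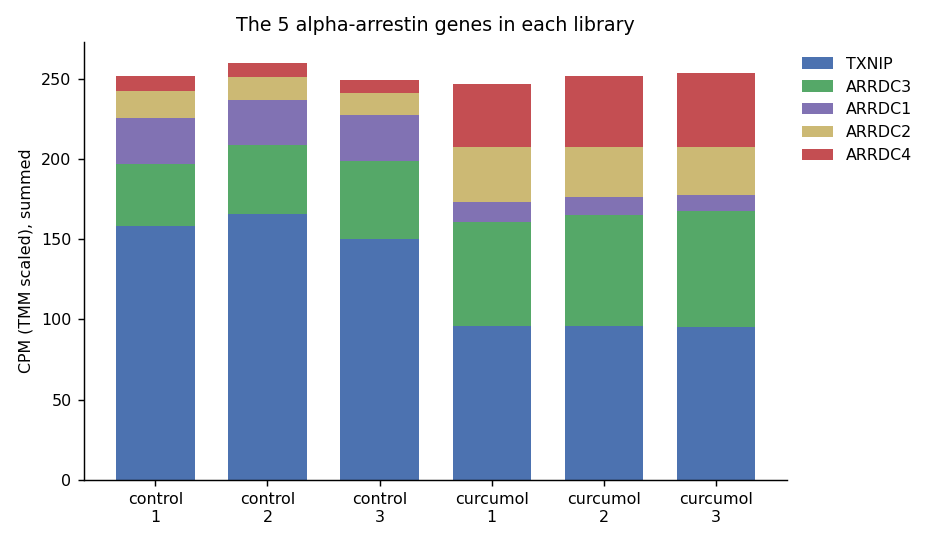
Summed CPM (vertical axis, TMM scaled) of the 5 alpha-arrestin genes in each library, divided by gene. With this scaling the 6 bars lie between 247 and 260 CPM (with library totals alone the curcumol sums are 17.7% lower), while the TXNIP part is smaller and the ARRDC4 part larger in the 3 curcumol libraries.

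Levels between genes were compared as CPM per kilobase of the longest annotated transcript. In control the order was TXNIP at 53.9 ± 2.68, MLX at 22.4 ± 2.17, MLXIP at 16.0 ± 0.0987, ARRDC3 at 10.4 ± 1.22, ARRDC1 at 9.00 ± 0.168, ARRDC2 at 3.90 ± 0.396 and ARRDC4 at 2.16 ± 0.213 (CPM per kilobase, SD, n = 3), with MLXIPL last. ARRDC3, at 9.19 to 11.6, and ARRDC1, at 8.81 to 9.12, were close without overlapping. In curcumol TXNIP was still first at 32.7 ± 0.105, followed by ARRDC3 at 16.4 ± 0.940, MLX at 12.3 ± 0.397, ARRDC4 at 10.6 ± 0.835, ARRDC2 at 8.50 ± 0.484, MLXIP at 6.55 ± 0.174 and ARRDC1 at 3.54 ± 0.497. So TXNIP headed the order in both groups, and ARRDC4 went from seventh place to the fourth. MLX and ARRDC4 lay close in curcumol and changed places when the length of all exons joined was used.

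The genes whose profile over the 6 libraries was most like that of TXNIP, by Euclidean distance between log2 CPM centred on the control mean among 10281 genes, were EFTUD2 (distance 0.0556), a spliceosome component, XPO6 (0.0571), an exporter of actin, FOXK1 (0.0767), a forkhead transcription factor, PABPC4 (0.0808), a poly(A)-binding protein, and RAPGEF1 (0.0835), an exchange factor for RAP1. All 5 fell, by 0.68 to 0.73 on the log2 scale, which the choice by distance to TXNIP fixed in advance. With the GC offset EFTUD2 stood at -0.24, XPO6 at -0.15, FOXK1 at 0.07, PABPC4 at -0.62 and RAPGEF1 at 0.10, where TXNIP stood at -0.75. Among the other tested genes described here MLX was nearest to TXNIP, in place 404, and ARRDC4 the farthest, in place 9943.

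The same fit was read for 7 lists of genes around these proteins. The median log2 fold change over all tested genes was -0.02, and 39.4% of them were higher and 40.3% lower. With the GC offset 7010 of 15154 genes were higher and 4904 lower, and with library totals 4818 and 7372 of 15160. List counts under these 2 scalings are to be read beside those numbers. Partners of MLX and MAX, the proteins that share this network of paired factors, had 4 of 7 genes higher and 3 lower, with a median of 1.10. The MLX partner MXD1, a repressor, stood at 9.63 ± 0.936 CPM in control and 198 ± 9.35 CPM in curcumol (SD, n = 3), with no overlap. It rose by 4.36 ± 0.08 on the log2 scale (SE, edgeR adjusted p = 2.47e-20). MXD4, a repressor of the same family, rose by 2.70 ± 0.11, or 3.46 with the GC offset, and MAX, the partner of MYC and of the MXD proteins, by 1.19 ± 0.06. MNT, another partner of MLX, named after its value was seen, stood at -0.37 ± 0.11 and at 0.57 with the GC offset, under which 5 members were higher and 2 lower.

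Of 18 genes described as targets of MondoA or ChREBP, TXNIP and ARRDC4 left out, 14 were tested, 7 were higher and 7 lower (median 0.05). FASN, fatty acid synthase, fell by 2.79 ± 0.06 on the log2 scale, or 1.72 with the GC offset, and ACACA, acetyl-CoA carboxylase, fell by 1.56 ± 0.07. HK2, a hexokinase, rose by 1.53 ± 0.06 and KLF10, a transcription factor named after its value was seen, by 0.92 ± 0.07. The list thus split evenly, as all tested genes nearly did, so this split is near the background.

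Genes that supply or use glucose-6-phosphate, the metabolite that activates MondoA, had 4 of 11 higher and 3 lower (median -0.04). With the GC offset 8 were higher and 2 lower, and with library totals 4 were higher and 6 lower. The balance over all genes moved the same way under each of these scalings. The glucose transporter SLC2A3 (GLUT3) rose by 3.94 ± 0.09, and H6PD, which oxidises glucose-6-phosphate in the endoplasmic reticulum, fell by 3.35 ± 0.15. AMPK subunits, parts of the energy-sensing kinase that marks TXNIP protein for degradation, had 4 of 6 higher and 2 lower (median 0.35), but 2 higher and 3 lower with the GC offset and 2 and 2 with library totals. The beta subunit gene PRKAB2 rose by 1.14 ± 0.07, and the gamma subunit genes PRKAG1 and PRKAG2 stood at -0.76 ± 0.08 and -0.81 ± 0.07, lower in curcumol. These 3 kept their directions under both scalings.

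Ubiquitin ligases of the NEDD4 family, which alpha-arrestins recruit, had 4 of 8 higher and 3 lower (median 0.28). NEDD4L rose by 1.33 ± 0.06, WWP1 by 1.19 ± 0.07 and SMURF1 by 0.72 ± 0.06 on the log2 scale, the last of them by 1.15 with the GC offset and 0.46 with library totals. ITCH, the ligase known to target TXNIP, named after its value was seen, rose by 0.31 ± 0.07, but stood at 0.01 with the GC offset and at 0.05 with library totals (edgeR adjusted p = 0.539). Other genes with an arrestin fold had 1 of 6 higher and 4 lower (median -0.95), or 2 and 3 with the GC offset. VPS26A, a retromer subunit, rose by 1.87 ± 0.07 while its paralog VPS26B fell by 1.20 ± 0.11, and RGP1, a partner in a Golgi exchange factor, fell by 1.09 ± 0.09. With the GC offset VPS26B stood at -0.51 and RGP1 at -0.60.

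Of 8 thioredoxin genes and other TXNIP partners 2 were higher and 4 lower (median -0.23), or 5 and 3 with the GC offset and 2 and 5 with library totals. Thioredoxin itself, TXN, which TXNIP protein binds, rose by 1.06 ± 0.06 on the log2 scale, and TXNRD1, the reductase that recharges it, by 1.98 ± 0.05. MAP3K5, which encodes the kinase ASK1 that thioredoxin holds inactive, fell by 2.16 ± 0.10. TXN mRNA thus rose where TXNIP mRNA fell.

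**Figure D4:**
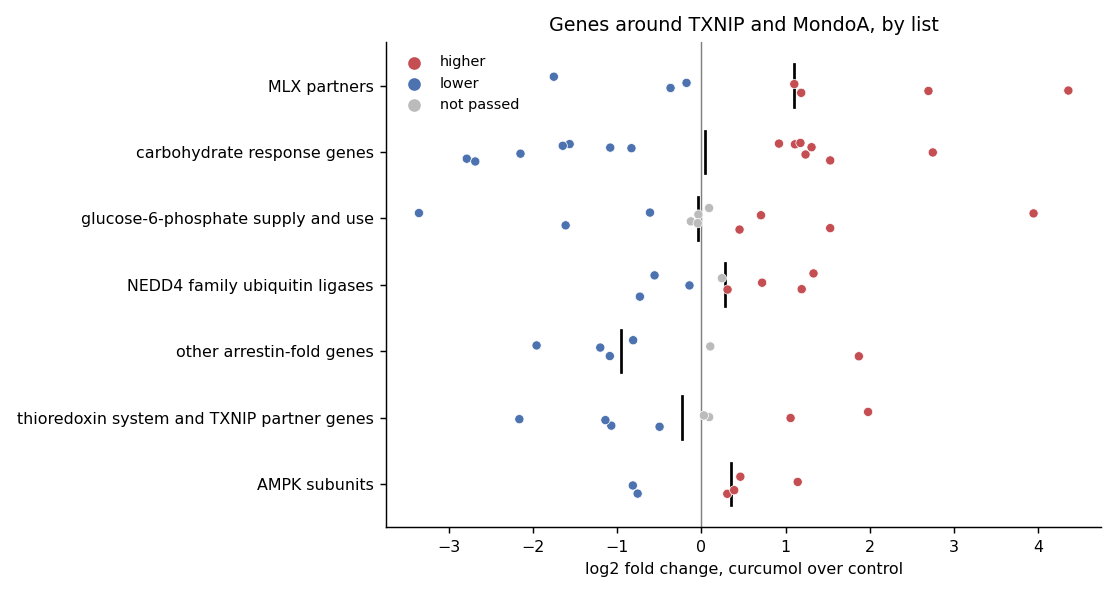
Log2 fold change of curcumol over control (horizontal axis) for the tested genes of the 7 lists. Points are genes, coloured by the edgeR call, and vertical marks are medians. The list labelled MLX partners, which holds partners of MLX and MAX, has the highest median, 1.10. Every list holds genes on both sides of 0.

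Libraries held 16962012 to 17827433 counts. Of 10 markers of renal epithelium and of this line, 9 were tested, and all 9 were lower in curcumol, against 40.3% of all tested genes. KRT18, 1 of them, overlapped between the groups. With the GC content offset 5 were lower and 2, KRT18 and KRT19, higher, against 4904 lower and 7010 higher of 15154 genes. The calls with the offset include its upward shift common to all genes. PAX8 was at 192 and 60.1 CPM (group means), while CDH6 was at or next to 0. Leukocyte markers summed to 0.108 to 0.258 CPM in control and 5.12 to 5.84 CPM in curcumol, with CD14 alone at 0.0860 and 4.54 CPM (group means), and CD3E was at 0 in every library. Endothelial markers summed to at most 1.14 CPM and fibroblast and smooth muscle markers to 14.6 to 16.9 CPM in control and 22.0 to 34.8 CPM in curcumol, with COL3A1, PDGFRB and ACTA2 higher and COL1A1 lower (-1.14 on the log2 scale, edgeR adjusted p = 0.0162, and -0.21 with the offset, adjusted p = 0.651). COL1A2 had 70 counts in curcumol replicate 2 and at most 1 in any other library. Markers of adipocytes and liver, tissues where MLXIPL is known to be high, summed to 0.0516 to 0.215 CPM in control and 0.816 to 2.27 CPM in curcumol, with at most 17 counts of PLIN1 or ALB in a library, and ADIPOQ, LEP and TTR were at 0. The part of these markers in the results above was not tested.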

How the data were processed

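The authors deposited raw counts (unnormalized whole numbers, per the file headers) in a single table of Ensembl genes. Per the submitters' processing notes the build is GRCh38 (hg38). Which aligner, counter, annotation and strand setting were used is not given in the sources used here. All 58735 identifiers are found in GENCODE 29, which gave positions, lengths, overlaps and GC content.

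Libraries were grouped by their labels. Replicates were not copies of each other (chi-square 3.68 to 8.82 per degree of freedom for pairs within a group). These values pool all genes, so they do not show for single genes whether depth or the 3 libraries per group limit precision more. Genes were filtered with filterByExpr, scaled with TMM and tested with the robust quasi-likelihood F test of edgeR 4.0.16 (R 4.3.3), two-sided, with Benjamini-Hochberg adjustment over the 15160 genes kept. The SE is the size of the log2 fold change over the root of F. The code was checked on simulated counts that held no GC trend, so that check could not test the GC content offset described below.

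Members and lists were chosen with earlier results of these data known. Every member was named, with the 3 genes of smallest p in each of 7 lists (all where 5 or fewer were tested) and the 5 genes nearest to TXNIP with a mean of at least 100 counts. Marker genes other than those at 0 were named after their values were seen. Ratios used exact permutation tests. Alternatives were DESeq2 1.42.0, limma-voom (limma 3.58.1), other scalings and filters, the replicate number as a block and each library left out. A GC content offset, fitted in each library by a spline (5 degrees of freedom), was added after the data were seen, as were library totals and leaving out each library for the alpha-arrestin sum. The spline kept an intercept, so the mean shift of each library entered both there and through TMM.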

Additional observations from a re-analysis of the deposited data

How the results depend on the processing

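The 7 tested genes kept their direction and passed the test under all 14 alternatives. The GC content offset among them includes an upward shift common to all genes, so the direction and call of ARRDC3 under it are uncertain. TXNIP ranged from -0.99 to -0.69 on the log2 scale, ARRDC4 from 2.03 to 2.36, ARRDC2 from 0.86 to 2.01, ARRDC3 from 0.29 to 0.73, ARRDC1 from -1.61 to -0.36, MLXIP from -1.55 to -0.51 and MLX from -1.13 to -0.44. The largest adjusted p over these alternatives was 0.00218, for ARRDC1 with the GC content offset (edgeR). With 1 library left out, TXNIP lay between -0.77 and -0.69 and ARRDC4 between 2.21 and 2.36. The log2 change of the TXNIP to ARRDC4 ratio lay between -3.08 and -2.96. With the GC content offset that of TXNIP to MLXIP turned from 0.57 to -0.24, that of MLXIP to MLX went from -0.43 to -0.0663, that of ARRDC3 to ARRDC2 from -0.47 to -1.72 and that of ARRDC4 to ARRDC3 from 1.63 to 1.94. The summed alpha-arrestin CPM changed by -0.02 on the log2 scale, by -0.28 with library totals alone, and by -0.0284 to 0.0021 with 1 library left out. These moves follow from the change of scaling or of libraries, and what underlies the GC trend was not tested. The number of genes changed ran from 9904 to 13625, against 12076.

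Same-numbered libraries did not deviate together (correlations across genes of 0.02, -0.01 and 0.08), so the replicate numbers were not taken to pair them. With the replicate number as a block, TXNIP stood at -0.72, ARRDC4 at 2.29 and MLXIP at -1.29, and all 7 genes passed. MLXIPL, at 4 counts in all, cannot be compared at this depth.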
